A study of Mus musculus with 20 samples.

Results

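The genotype effect of topical tamoxifen was described in mouse keratinocytes: 5 libraries of Cyp11b1 knockout mice (cKO 2, 3, 4, 5 and 7) against 5 libraries of floxed controls (control 1, 3, 5, 6 and 7). These 10 libraries were chosen by their labels from the 20 libraries of the series. The other 10 come from mice of the same genotypes that received tamoxifen by injection into the peritoneum. The cKO mice are K14-CreERTam x Cyp11b1 L2/L2, that is, both Cyp11b1 alleles are floxed and a tamoxifen-activated Cre recombinase is driven by the promoter of Krt14, a keratin of basal keratinocytes. The controls are Cre-negative littermates with Cyp11b1 L2/L2. Both groups were given tamoxifen in ethanol on ear (20 µl) and shaved back (100 µl) on 5 successive days, and keratinocytes were taken from ear and dorsal skin on day 6 and sorted by flow cytometry. Each library is 1 mouse, and the ages of the mice are not given in the sources used here. The Cre transgene is present in every cKO mouse and in no control, so effects of the transgene and of the Cyp11b1 deletion cannot be told apart. The p-values below measure the spread between these mice.

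Cyp11b1 encodes the mitochondrial hydroxylase that completes corticosterone synthesis. Keratinocytes can make glucocorticoids locally, and the glucocorticoid receptor, encoded by Nr3c1, is known in skin for restraining inflammatory transcription and for its part in epidermal differentiation. The epidermis is renewed from a basal layer marked by Krt5 and Krt14, and its cells switch to Krt1 and Krt10 as they move into the suprabasal layers.

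The 10 libraries held between 12343474 and 31007191 counts (14061801 to 29843835 in cKO) and between 14536 and 16695 detected genes. Krt14 ranged from 36000 to 76000 CPM (counts-per-million, scaled by TMM factors) in cKO and from 26000 to 65800 in controls, whereas the leukocyte gene Ptprc and the fibroblast gene Pdgfra did not exceed 0.081 and 0.232 CPM of the library total. Mitochondrial transcripts took 7.25% and 7.49% of the counts in cKO 3 and cKO 5 and 2.67% to 5.78% in the other 8. Y-linked transcripts marked cKO 2 and 5 and control 1, 5 and 6 as male. The first principal component of log2 CPM held 31.8% of the variance between the 10 libraries. Of that component, 0.0369% lay between genotypes and 47.4% between sexes. The second held 19% of the variance, 35.7% of it between genotypes. Over the genes tested, 12.5% of the variance lay between genotypes and 21.5% between sexes. Log2 CPM of pairs of libraries correlated across genes at 0.946 to 0.986 within a group and at 0.946 to 0.984 between the groups.

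Cyp11b1 itself (ENSMUSG00000075604, chr15:74834125-74841643, minus strand, GRCm38) was close to the limit of detection. It had 1, 2, 0, 5 and 1 counts in control 1, 3, 5, 6 and 7 and 0, 1, 0, 6 and 0 counts in cKO 2, 3, 4, 5 and 7. The groups overlapped. A floor of 3 counts corresponds to 0.0968 to 0.243 CPM in these libraries. The mean difference in log2(CPM + 1), cKO minus control, was -0.0705 (exact two-sided permutation p = 0.548, n = 5 per group), and without control 6 it was 0.0114. A loss of the transcript was therefore not detectable at this depth.

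Esr1 and Gypc, looked at after their values were seen, served as a second check of the labels. The CreER protein carries a ligand-binding domain of the estrogen receptor, and counts per gene do not separate reads of such a transgene from reads of Esr1 itself. Esr1 (ENSMUSG00000019768, chr10:4611593-5005614, plus strand) was at 67.6, 34.1, 74.6, 65.9 and 48.8 CPM in cKO 2, 3, 4, 5 and 7 and at 1.41, 2.89, 1.84, 1.50 and 2.66 CPM in control 1, 3, 5, 6 and 7. The topical groups were far apart, and each topical library went with its label. Gypc (ENSMUSG00000090523, chr18:32528322-32560034, minus strand), which encodes glycophorin C, split the topical libraries in the same way, with 15.8 to 24.6 CPM in cKO and 0.185 to 0.887 CPM in controls. Among the systemic libraries the split went against 3 labels. Esr1 was at 50.8, 70.8 and 53.7 CPM in the libraries labelled systemic cKO 2, 6 and 7 but at 1.86 and 2.39 CPM in those labelled systemic cKO 4 and 5. It was at 43.7 CPM in the library labelled systemic control 6 and at 1.35 to 4.41 CPM in the other systemic controls. Gypc was at 0.293 and 0.316 CPM in the libraries labelled systemic cKO 4 and 5 and at 16.3 CPM in the one labelled systemic control 6. These 3 libraries enter the estimate of the spread when all 20 libraries are fitted together. Counts below are therefore also given for the 10 topical libraries fitted alone and for 17 libraries without those 3.

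**Figure D1:**
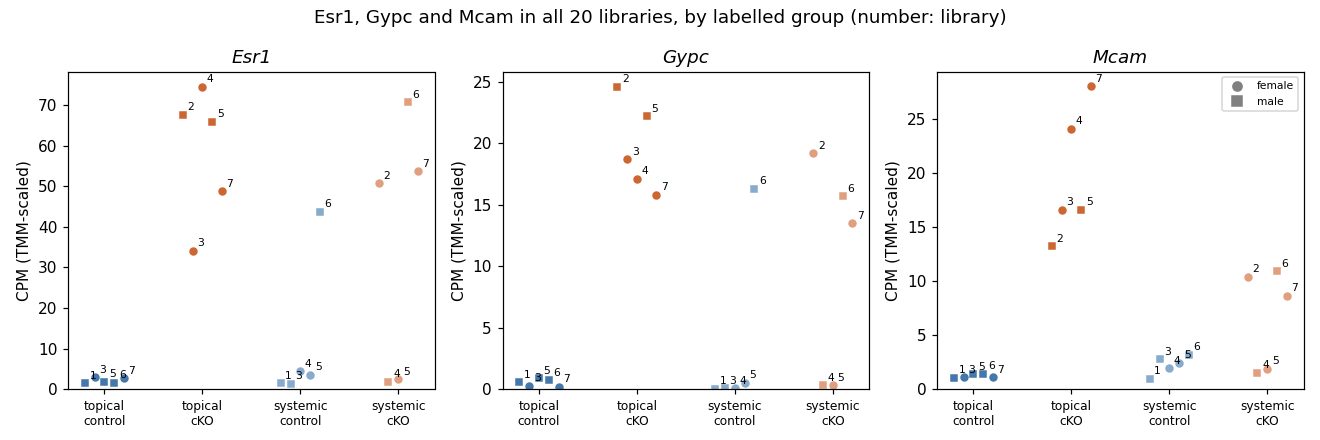
CPM (vertical axes) of Esr1, Gypc and Mcam in all 20 libraries, by labelled group (horizontal axis). Each point is 1 mouse, with its library number beside it, and circles are female and squares male. All 5 topical cKO libraries lie above all 5 topical controls in each gene, while for Esr1 the libraries labelled systemic cKO 4 and 5 lie at 1.86 and 2.39 CPM and the library labelled systemic control 6 at 43.7 CPM.

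Across all expressed genes, few passed the test of the genotype effect. Of 12424 genes tested in the fit of all 20 libraries, 16 (0.129%) passed an adjusted p of 0.05 in edgeR's quasi-likelihood test with Benjamini-Hochberg adjustment. All 16 were higher in cKO, and 0 (0%) were lower. The DESeq2 Wald test called 42 genes, 39 higher and 3 lower. The 10 topical libraries alone gave 23 called genes of 11832 (0.194%), all higher, of which 13 were among the 16. This overlap is 81.2% of the 16 and 56.5% of the 23. The fit without the 3 systemic libraries called 24 of 12582 genes (0.191%). At an unadjusted p under 0.05, 405 genes (3.26%) were higher in cKO and 298 (2.4%) lower, together 5.66% of the genes tested. The 5 cKO libraries lay above all 5 controls for 105 genes (0.845%) and below all of them for 69 (0.555%). With scaling to the library total alone these counts were 61 and 31.

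The log2 fold changes differed with the level of the gene. Their median absolute value was 0.39 under a mean of 1 CPM and 0.12 over 100 CPM. The part of counting error and of the filter at low levels was not tested. The log2 fold change, cKO minus control, had a median of 0.02 over all genes, its 25th and 75th percentiles were -0.12 and 0.18, and its 5th and 95th were -0.37 and 0.59. A log2 fold change over 1 was found for 171 genes (1.38%), and one under -1 for 27 (0.217%). Below a mean of 1 CPM (1296 genes) the median was 0.23, and 66 of them were higher and 31 lower at an unadjusted p under 0.05. Between 25 and 100 CPM the order was the other way, with 40 higher and 71 lower of 2295 genes. Of the 953 genes over 100 CPM, 8 were higher and 13 lower, and Notch1 was the one called.

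**Figure D2:**
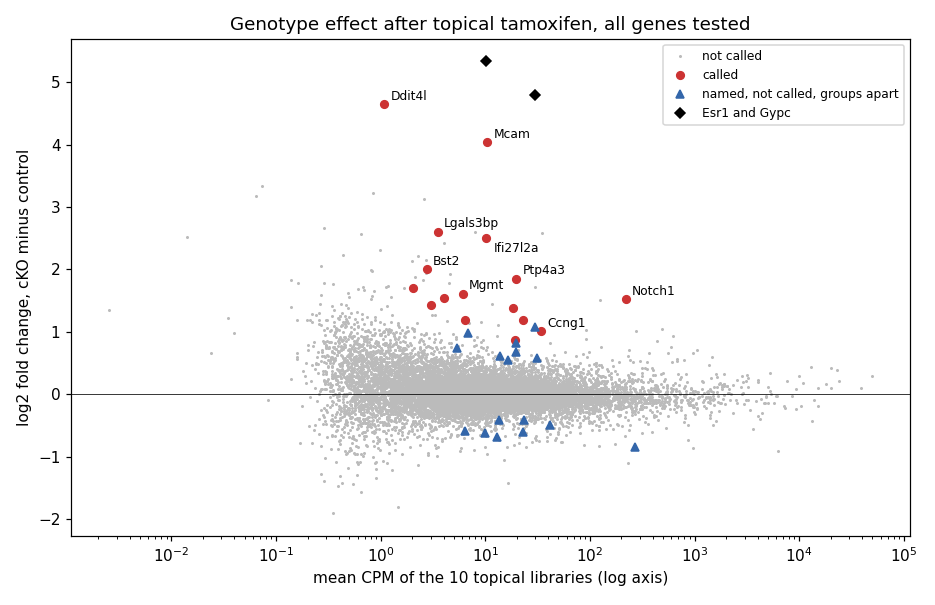
Log2 fold change, cKO minus control (vertical axis), against mean CPM of the 10 topical libraries (horizontal log axis) for the genes tested. Red circles are the 16 called genes, all above 0, blue triangles the 16 named genes whose groups were apart without passing the test, and black diamonds Esr1 and Gypc. Most genes lie close to 0, and the 5th and 95th percentiles are -0.37 and 0.59.

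Mgmt, Polk and Ccng1 are 3 of the 16 called genes, and Polk and Ccng1 stand in the list of p53 targets. The factor p53 is stabilised by DNA damage and other stress and induces genes of cell cycle arrest, repair and apoptosis. Mgmt (ENSMUSG00000054612, chr7:136894614-137130266, plus strand), which removes alkyl groups from guanine in DNA, was at 8.97, 8.18, 10.7, 7.12 and 10.8 CPM in cKO 2, 3, 4, 5 and 7 and at 3.98, 3.26, 2.66, 2.43 and 2.55 CPM in control 1, 3, 5, 6 and 7. The lowest cKO library stood well above the highest control. It rose by 1.61 on the log2 scale (SE 0.18, adjusted p 0.00011, edgeR). Polk (ENSMUSG00000021668, chr13:96480690-96542579, minus strand) encodes DNA polymerase kappa, which copies past damaged bases. Its CPM were 7.24, 8.53, 8.46, 8.14 and 12.3 in the cKO libraries and 4.23, 3.21, 4.57, 3.64 and 3.88 in the controls. The groups did not overlap, and cKO 7 stood above the other cKO libraries. It rose by 1.19 (SE 0.22, adjusted p 0.0178, edgeR), but its call was lost without control 1, 3, 6 or 7 or without cKO 7 (adjusted p 0.0521 to 0.0833). Ccng1 (ENSMUSG00000020326, chr11:40748552-40755311, minus strand), cyclin G1, a long-known p53 target, was at 44.7, 34.3, 50.0, 39.8 and 59.6 CPM in cKO and at 24.3, 18.8, 31.9, 18.3 and 20.1 CPM in controls. The closest pair of libraries, cKO 3 and control 5, still did not overlap. It rose by 1.01 (SE 0.18, adjusted p 0.01, edgeR, and 0.058 and 0.0565 without control 6 or control 7).

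The list of p53 targets held 29 genes, and all 29 passed the filter on low counts. Of these, 25 had a higher mean in cKO, 11 were higher and 0 lower at an unadjusted p under 0.05 (37.9%, against 3.26% higher over all genes), and 2, Ccng1 and Polk, were called. Their median log2 fold change was 0.38, beside 0.02 over all genes tested. The count of called members was 5 by the DESeq2 Wald test, 1 without control 1, control 3 or cKO 7, and 0 without control 6 or control 7. It was also 0 with the replicate number fitted as a block. Among members below the threshold, Bax, a promoter of apoptosis at the mitochondrion, was at 20.3 to 28.8 CPM in cKO and 10.3 to 17.9 in controls (log2 fold change 0.68, SE 0.15, adjusted p 0.0818, edgeR). Aen, a p53-induced nuclease, had a log2 fold change of 0.69, Ercc5, the XPG endonuclease of nucleotide excision repair, 0.61, and Zmat3, an RNA-binding p53 target, 0.62. Mdm2, the ubiquitin ligase that holds p53 down, had 0.45, and Cdkn1a, the cell cycle inhibitor p21, 0.54, while the DNA damage recognition gene Ddb2 (0.03) and the ribonucleotide reductase subunit Rrm2b (-0.38) did not go with them. The mean level of the list, relative to the mean of the controls on the log2 scale, was 0.28, 0.37, 0.60, 0.28 and 0.45 in cKO 2, 3, 4, 5 and 7 and between -0.14 and 0.14 in the controls. The list was above the controls in every cKO library, male and female. Within females the median log2 fold change was 0.36 and within males 0.34. Without cKO 3 and cKO 5, the libraries with the most mitochondrial transcripts, the median was 0.37 with 10 higher and 0 lower at an unadjusted p under 0.05.

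Siva1, Rev1 and Ephx1, which are not in the p53 list, were higher in every cKO library without passing the test in the 20-library fit. Siva1, which encodes a regulator of apoptosis, ranged from 22.7 to 28.0 CPM in cKO and from 9.28 to 19.2 CPM in controls (log2 fold change 0.83, SE 0.17, adjusted p 0.0564, edgeR). Rev1, the scaffold of translesion synthesis, was at 6.58 to 12.3 CPM in cKO and 4.20 to 5.14 CPM in controls, with a log2 fold change of 0.98 and an adjusted p of 0.142. Ephx1, microsomal epoxide hydrolase, was at 30.9 to 52.8 CPM in cKO and 16.3 to 22.9 CPM in controls. Its log2 fold change was 1.08, with an adjusted p of 0.0682 in the 20-library fit and 0.00904 in the 10-library fit.

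Mcam, Notch1, Ptp4a3, Ddit4l, Kank3 and Abcb1b, which act in adhesion, signalling, the cytoskeleton and transport, were called as well. Mcam (ENSMUSG00000032135, chr9:44134469-44142727, plus strand), the adhesion molecule CD146, was at 13.2, 16.6, 24.1, 16.6 and 28.0 CPM in cKO 2, 3, 4, 5 and 7 and at 1.06, 1.10, 1.36, 1.43 and 1.07 CPM in control 1, 3, 5, 6 and 7. The controls lay close together, far below every cKO library. It rose by 4.03 on the log2 scale (SE 0.48, adjusted p 0.000134, edgeR). Notch1 (ENSMUSG00000026923, chr2:26457903-26516663, minus strand), the receptor that drives keratinocytes out of the basal state, was at 230, 321, 515, 290 and 281 CPM in cKO and at 107, 167, 69.0, 118 and 109 CPM in controls. The groups did not overlap, and cKO 4 was highest. It rose by 1.52 (SE 0.27, adjusted p 0.0104, edgeR), and its adjusted p was 0.0521, 0.0527 and 0.0565 without control 1, control 5 and control 7. Other genes of the Notch and Wnt list did not pass the test, and Notch1 was the one called. Of 22 past the filter, 15 had a higher mean in cKO, beside 54% of all genes. The Notch target Hes1 was at 72.8 CPM in controls and 50.9 CPM in cKO (log2 fold change -0.52, SE 0.26), the ligand Jag2 at 32.7 and 44.3 CPM, and the receptor Notch2 at 38.1 and 29.5 CPM.

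Ptp4a3 (ENSMUSG00000059895, chr15:73723145-73758766, plus strand), the phosphatase PRL-3, was at 18.3, 19.2, 39.7, 24.1 and 54.3 CPM in cKO and 7.64 to 9.48 CPM in controls. The cKO libraries were spread widely, and all lay above the controls. It rose by 1.85 (SE 0.24, adjusted p 0.000376, edgeR). Ddit4l (ENSMUSG00000046818, chr3:137621612-137628333, plus strand), an inhibitor of mTOR signalling also named REDD2, was near the floor in controls, with 2, 2, 0, 3 and 0 counts against 37, 26, 25, 76 and 41 counts in cKO. The pooled counts were 7 in controls and 205 in cKO, a ratio of 26 after scaling (exact 95% interval 12.4 to 65.5, for counting error alone). Its adjusted p was 0.00446 in edgeR's test. Kank3 (ENSMUSG00000042099, chr17:33810519-33822918, plus strand), a regulator of the actin cytoskeleton, rose by 1.70, from 0.946 ± 0.263 to 3.12 ± 0.603 CPM (SD, n = 5 each; adjusted p 0.00298, edgeR). Abcb1b (ENSMUSG00000028970, chr5:8798147-8866315, plus strand), the drug efflux transporter P-glycoprotein, rose by 1.54, from 2.08 ± 0.559 to 6.01 ± 1.58 CPM (adjusted p 0.00955, edgeR, and 0.0509 and 0.0565 without control 1 or control 7).

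Dcxr, Fbxw9, Gapdhs and Aaas were also called. Dcxr (ENSMUSG00000039450, chr11:120725399-120727281, minus strand), a reductase of xylulose and dicarbonyl compounds, was at 24.8, 26.0, 30.6, 22.2 and 28.5 CPM in cKO and 12.7, 11.5, 7.44, 10.1 and 8.87 CPM in controls. The gap between the groups was wider than the range of either of them. It rose by 1.38 (SE 0.16, adjusted p 0.00011, edgeR). Fbxw9 (ENSMUSG00000008167, chr8:85060055-85067124, plus strand), a substrate adaptor of a ubiquitin ligase, was at 24.8 to 42.7 CPM in cKO and 10.3 to 15.8 CPM in controls and rose by 1.19 (SE 0.15, adjusted p 0.000208, edgeR). Gapdhs (ENSMUSG00000061099, chr7:30729775-30743681, minus strand), the glycolytic enzyme of sperm, was at 1.63 ± 0.162 CPM in controls and 4.45 ± 1.78 CPM in cKO and rose by 1.42 (adjusted p 0.00446, edgeR). Aaas (ENSMUSG00000036678, chr15:102338252-102350771, minus strand), which encodes the nuclear pore protein aladin, rose by 0.87, from 13.6 ± 2.35 to 24.9 ± 4.68 CPM (adjusted p 0.00992, edgeR, and 0.0521 without control 1). Exons of Mcam, Fbxw9, Gapdhs, Abcb1b, Kank3 and Notch1 overlap exons of genes on the opposite strand in the annotation. Among other named genes, the same holds for Cyp11b1, Rev1, Ctsz, Ptgs1, Krt10, Plod2, Dglucy and Cpt1c. Exons of Bax, Ephx1 and Glb1 overlap exons of a gene on the same strand. The use of strand in counting is not given in the sources used here, so reads of these pairs cannot be told apart.

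Of the 10 genes called in the fit of the topical libraries alone and not in the fit of all 20, Esr1 (log2 fold change 4.80, SE 0.27) and Gypc (5.34, SE 0.30) had adjusted p-values of 2.6e-07 in edgeR's test. Dsc2 (ENSMUSG00000024331, chr18:20030633-20059554, minus strand), a desmosomal cadherin, was at 5.95, 7.32, 6.92, 4.82 and 9.67 CPM in cKO and 1.46 to 2.59 CPM in controls. All cKO libraries were above all controls, and its log2 fold change was 1.78 (SE 0.23, adjusted p 0.00264, edgeR, 10 libraries). Dsc2 also followed Esr1 among the systemic libraries. It was at 14 CPM in the one labelled systemic cKO 2, at 31.0 and 26.6 CPM in those labelled systemic cKO 6 and 7, at 17.9 CPM in the one labelled systemic control 6, and at 2.61 and 3.62 CPM in those labelled systemic cKO 4 and 5. The others included Plod2, a lysyl hydroxylase of collagen (2.57), Dglucy, D-glutamate cyclase (3.23), Cpt1c, a carnitine palmitoyltransferase (2.15), Ccl21a, a chemokine of lymphatic homing (1.45), the protease inhibitor Serpine2 (2.24) and Ephx1 (1.08). The controls were at a mean of 0.178 CPM for Plod2 and 0.167 CPM for Dglucy.

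**Figure D3:**
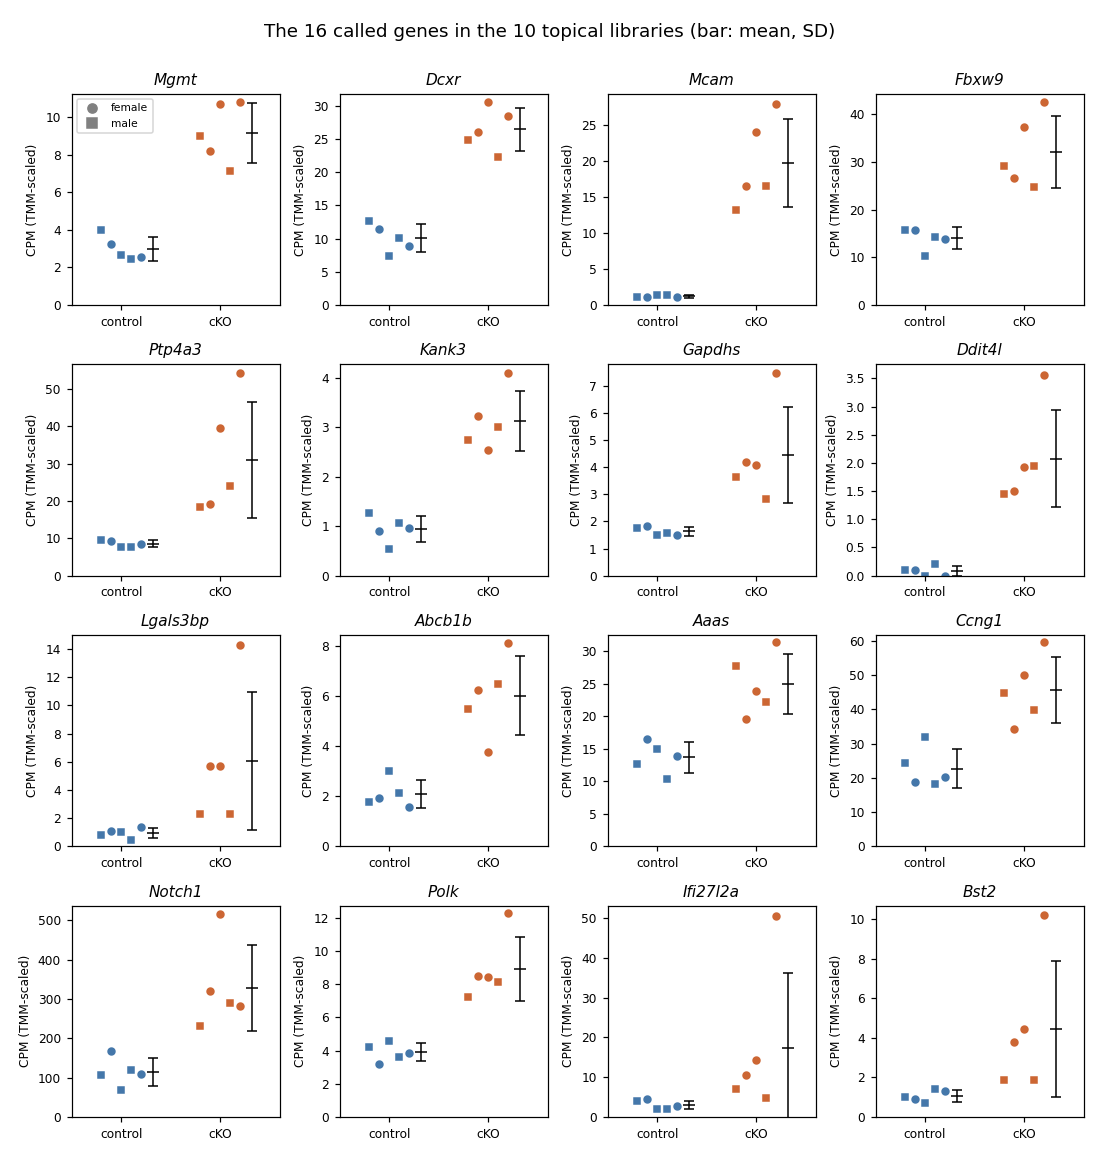
CPM (vertical axes, from 0) of the 16 called genes in the 5 control and 5 cKO libraries of topical mice (horizontal axis). Circles are female and squares male mice, and black bars are the mean and SD of each group, with bars that would reach under 0 ending at the axis. The groups do not overlap in any panel, and cKO 7 stands apart at 14.3 CPM for Lgals3bp and 50.5 CPM for Ifi27l2a.

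Interferon-stimulated genes held the other 3 called genes. Type I and type III interferons act through factors that bind the interferon-stimulated response element and induce antiviral genes. Promoters of 3 members and of 2 p53 targets are shown because they carry the letters of the elements that these pathways use. They run from 250 bases before to 50 bases after an annotated start and were taken from RefSeq (GRCm38.p6), 5′ to 3′ on the strand of the gene. Capitals mark the response element core GAAANNGAA, found on either strand, in Bst2 (chr8:71537423-71537722, minus strand, 2 overlapping matches), Oas1g (chr5:120887564-120887863, minus strand, 2 overlapping matches) and Stat2 (chr10:128270248-128270547, plus strand). In Bax (chr7:45466849-45467148, minus strand) and Cdkn1a (chr17:29090729-29091028, plus strand, 1 of its annotated starts) they mark a p53 response element, searched as a pair of decamers at most 1 base apart with at most 2 mismatches outside the core of each.
Bst2: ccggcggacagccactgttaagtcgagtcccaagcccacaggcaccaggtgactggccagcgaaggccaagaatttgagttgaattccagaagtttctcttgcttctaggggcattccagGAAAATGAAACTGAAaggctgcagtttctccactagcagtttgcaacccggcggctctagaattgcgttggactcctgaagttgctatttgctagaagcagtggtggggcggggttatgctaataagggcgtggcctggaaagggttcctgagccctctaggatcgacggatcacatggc
Oas1g: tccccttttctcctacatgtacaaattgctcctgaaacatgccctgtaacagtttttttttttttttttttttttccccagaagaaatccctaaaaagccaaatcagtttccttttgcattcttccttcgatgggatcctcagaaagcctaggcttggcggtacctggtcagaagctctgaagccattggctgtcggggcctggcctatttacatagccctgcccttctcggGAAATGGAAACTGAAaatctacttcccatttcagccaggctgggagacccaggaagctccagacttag
Stat2: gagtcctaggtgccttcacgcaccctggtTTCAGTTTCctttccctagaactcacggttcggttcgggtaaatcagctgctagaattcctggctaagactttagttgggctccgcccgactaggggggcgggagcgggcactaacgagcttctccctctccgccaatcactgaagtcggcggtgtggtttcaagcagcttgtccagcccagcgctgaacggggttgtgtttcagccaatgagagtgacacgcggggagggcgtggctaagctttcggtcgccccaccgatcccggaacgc
Bax: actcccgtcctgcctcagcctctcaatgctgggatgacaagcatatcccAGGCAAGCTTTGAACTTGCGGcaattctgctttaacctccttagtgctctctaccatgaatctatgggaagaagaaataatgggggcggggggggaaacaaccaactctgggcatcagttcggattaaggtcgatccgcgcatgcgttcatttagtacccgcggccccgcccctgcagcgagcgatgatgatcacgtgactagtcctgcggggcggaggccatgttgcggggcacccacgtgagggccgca
Cdkn1a: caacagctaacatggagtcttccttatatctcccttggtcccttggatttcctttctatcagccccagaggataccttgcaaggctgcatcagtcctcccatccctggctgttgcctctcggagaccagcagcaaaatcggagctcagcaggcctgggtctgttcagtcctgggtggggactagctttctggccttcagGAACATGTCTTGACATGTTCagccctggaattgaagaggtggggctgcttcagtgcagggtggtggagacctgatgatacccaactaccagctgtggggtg

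The core GAAANNGAA was present in a promoter of 14 of the 27 members of the interferon list with a RefSeq promoter (51.9%), in 9.76% of all genes with one and in 8.56% of all promoters. A p53 element was present for 2 of 21 p53 targets (9.52%), 0.377% of all genes and 0.32% of all promoters. Of the 16 called genes 14 had a RefSeq promoter. Among these the interferon core was found in Bst2 alone, the p53 element in none, and the glucocorticoid response element core ACANNNTGT, searched on both strands, in Mgmt alone (7.14%, against 7.9% of all genes and 6.85% of all promoters). A match says only that these letters are in the window.

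Ifi27l2a (ENSMUSG00000079017, chr12:103442167-103443680, minus strand), a small interferon-induced mitochondrial protein, was at 6.89, 10.4, 14.3, 4.69 and 50.5 CPM in cKO 2, 3, 4, 5 and 7 and at 3.88, 4.36, 1.98, 1.86 and 2.81 CPM in control 1, 3, 5, 6 and 7. The groups did not overlap, but cKO 5 was only just above control 3 and cKO 7 was far above all others. Lgals3bp (ENSMUSG00000033880, chr11:118392751-118402092, minus strand), a secreted galectin-3 binding protein, was at 2.27, 5.70, 5.69, 2.32 and 14.3 CPM in cKO and 0.428 to 1.37 CPM in controls. Bst2 (ENSMUSG00000046718, chr8:71534255-71537456, minus strand), tetherin, which holds budding viruses at the cell surface, was at 1.84, 3.80, 4.46, 1.86 and 10.2 CPM in cKO and 0.682 to 1.43 CPM in controls. In all 3 genes the male libraries cKO 2 and cKO 5 were the lowest of their group and cKO 7 the highest. They rose by 2.51 (SE 0.50), 2.61 (SE 0.43) and 2.00 (SE 0.40), with adjusted p-values of 0.0446, 0.00672 and 0.0446 in edgeR's test on 20 libraries. None of them was called in the 10 topical libraries alone, where the adjusted p-values were 0.451 for Ifi27l2a, 0.0663 for Lgals3bp and 0.218 for Bst2. Without the 3 systemic libraries they were 0.123 for Ifi27l2a, 0.0119 for Lgals3bp and 0.0557 for Bst2. Among the fits that each dropped 1 topical library, Lgals3bp was called in 10 of 10, Ifi27l2a in 3 and Bst2 in 2.

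Of the 58 genes on the interferon list, 36 passed the filter. All 36 had a higher mean in cKO, 17 were higher and 0 lower at an unadjusted p under 0.05 (47.2%, against 3.26% higher over all genes), and 3 were called. The median log2 fold change was 0.75. Below the threshold stood Oasl2, an oligoadenylate synthetase-like antiviral gene (1.22 CPM in controls, 6.80 in cKO, log2 fold change 2.42, adjusted p 0.0687, edgeR), and Irf7, the factor that amplifies interferon production (1.08 and 4.35 CPM, 1.94, adjusted p 0.129). Oas1a, a synthetase that activates RNase L, was at 2.18 and 13.9 CPM, and Stat2 at 6.62 and 11.4 CPM. The antiviral kinase Eif2ak2 was at 3.08 and 3.15 CPM. The filter asks for enough counts in at least 5 libraries, so list members high only in cKO could pass it. With a filter of a mean of at least 5 CPM over all 20 libraries, 16 members were left. All 16 had a higher mean, 5 were higher at an unadjusted p under 0.05 and 1 was called, with a median of 0.52.

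The size of this pattern differed between the cKO mice. Relative to the mean of the controls, the list stood at 0.08, 0.82, 1.05, -0.12 and 2.09 on the log2 scale in cKO 2, 3, 4, 5 and 7 and between -0.25 and 0.26 in the controls. The 3 female cKO libraries were above every control, and the 2 male ones lay within the range of the controls. The median log2 fold change was 0.87 within females, where 36 of 36 were higher, and 0.00 within males, where 18 were. The difference between the sexes passed an unadjusted p of 0.05 for 11 of the 36 (3.63% of all genes did), and for 0 genes after adjustment. Without cKO 7 the median was 0.30, and 7 members instead of 17 were higher at an unadjusted p under 0.05, with 1 called (Lgals3bp). Without cKO 3 and cKO 5 it was 1.14, with 23 higher and 5 called. Limma voom with sample weights gave 9 higher and 0 called. Leukocyte markers without Epcam, which epithelial cells also express and which made up 80.3% to 91.9% of the sum of the list, added up to 15 to 21.9 CPM of the library total in cKO and 12 to 22.2 in controls. Of the 19 markers in the file, 13 were under 1 CPM in every topical library, 3 of these with no count, and the T cell gene Cd3e did not exceed 0.067 CPM in any topical library. In bulk samples, fewer cells of a type and less RNA per cell cannot be told apart.

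**Figure D4:**
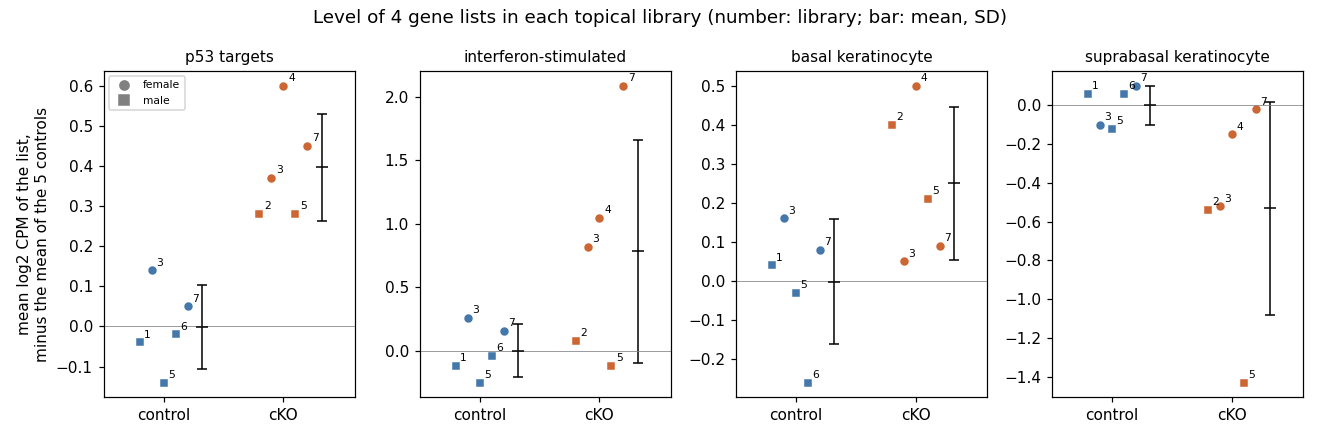
Mean log2 CPM over the members of 4 gene lists, minus the mean of the 5 controls (vertical axes), in each topical library by genotype (horizontal axis). Numbers are the library numbers, circles female and squares male mice, and black bars the mean and SD of each group. The p53 list lies between 0.28 and 0.60 in cKO, above all controls, while the interferon list runs from -0.12 to 2.09.

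Genes of antigen presentation and chemokines were tested as neighbours of the interferon genes, and 0 of either list were called. Of 30 genes of MHC and antigen processing, 19 had a higher mean in cKO (54% of all genes had), with a median log2 fold change of 0.18. At an unadjusted p under 0.05, 0 were lower and 2 were higher (3.26% of all genes were). These were the class II genes H2-Eb1 (2.17 CPM in controls, 4.31 in cKO) and H2-DMb1 (1.20 and 2.09 CPM). The median was -0.13 without cKO 7. Of 11 chemokines past the filter, 9 had a higher mean, with a median of 0.46. The 2 at an unadjusted p under 0.05 were Cxcl10, induced by interferons (log2 fold change 0.91), and Cxcl16 (154 and 221 CPM). Without control 1 or without control 5, 0 chemokines were higher at that threshold. Tslp, an epithelial cytokine of allergic inflammation, was at 31.6, 10.7, 15.1, 16.9 and 16.4 CPM in cKO and at 5.29, 7.36, 9.62, 9.56 and 10.2 CPM in controls. The groups did not overlap, although cKO 3 and control 7 almost touched, and the adjusted p was 0.881 (log2 fold change 1.11, SE 0.52, edgeR).

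Markers of the epidermal layers leaned in opposite directions without a called gene. Of 17 basal keratinocyte genes, 17 had a higher mean in cKO, with a median log2 fold change of 0.22, and 3 were higher and 0 lower at an unadjusted p under 0.05. Over all genes, 54% had a higher mean and 3.26% were higher at an unadjusted p under 0.05. The 3 were Itgb4 (213 CPM in controls, 307 in cKO), a hemidesmosome integrin, Cdh3 (40.1 and 53.3 CPM), P-cadherin, and the transcription factor Sox9 (15.4 and 21.9 CPM). Of 14 suprabasal genes past the filter, 13 had a lower mean, with a median of -0.43, and 3 were lower at an unadjusted p under 0.05 (21.4%, against 2.4% lower over all genes). Krt1, an early suprabasal keratin, was at 8250 CPM in controls and 4400 CPM in cKO (log2 fold change -0.91, SE 0.41, adjusted p 0.842, edgeR). The desmosomal cadherin Dsg1a was at 1490, 883, 1760, 1050 and 1070 CPM in control 1, 3, 5, 6 and 7 and at 738, 627, 856, 271 and 936 CPM in cKO 2, 3, 4, 5 and 7. These groups overlapped at control 3 and cKO 7. Ptgs1, cyclooxygenase 1, was at 308 to 408 CPM in controls and at 105 to 263 CPM in cKO (log2 fold change -0.84, SE 0.26, adjusted p 0.577). Its groups did not overlap, and cKO 5 was the lowest.

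The suprabasal list as a whole was lowest in 1 library. It stood at -0.54, -0.52, -0.15, -1.43 and -0.02 in cKO 2, 3, 4, 5 and 7, relative to the mean of the controls, and between -0.12 and 0.10 in the controls. In cKO 7 it was within the range of the controls. The median log2 fold change was -0.21 within females and -0.89 within males. Without cKO 3 and cKO 5, whose mitochondrial share was highest, the suprabasal median was -0.17 with 1 lower at an unadjusted p under 0.05, and the basal median was 0.42. Of the fibroblast markers past the filter, 7 of 9 had a higher mean in cKO, with a median of 0.69 that was 0.13 without cKO 5, and 0 were called. The collagen genes Col3a1 (0.557 CPM in controls, 1.78 in cKO), Col1a1 (0.452 and 1.29) and Col1a2 (1.39 and 2.72) were low in both groups. Postn, a matricellular gene at 265 and 200 CPM, made up 49.2% to 95.5% of the summed list, which ranged from 175 to 344 CPM of the library total in cKO and from 85.3 to 681 in controls. Without Postn the sum was 26.6 to 51.4 CPM in the other cKO libraries, 128 CPM in cKO 5 and 30.5 to 65.1 CPM in controls. Of 11 endothelial markers past the filter, 8 had a higher mean in cKO, with a median of 0.58 that was 0.14 without cKO 5, and 0 were called. Their sum ranged from 5.7 to 29.3 CPM of the library total in cKO and from 4.48 to 15.4 in controls. The tight junction gene Cldn5 was at 2.15, 1.96, 1.84, 3.75 and 2.00 CPM in cKO and 0.683 to 1.77 CPM in controls, so its groups did not overlap, whereas the defining marker Cdh5 was at 0.584 CPM in controls and 0.469 in cKO. Endothelial cells also express Mcam, and their part in its level was not tested. The part of fibroblast and endothelial markers, and that of the mitochondrial share, in the layer markers was not tested. Krt10 was at 6500 to 15000 CPM in cKO and 12300 to 16000 in controls, so its groups overlapped with TMM scaling, whereas on the library total alone they did not (8530 to 11800 against 13500 to 17000 CPM).

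The later steps of differentiation held 0 called genes. Of 28 terminal differentiation genes past the filter, 12 had a higher and 16 a lower mean, with a median of -0.07. Scel, sciellin of the cornified envelope, was the 1 member lower at an unadjusted p under 0.05 (126 and 85.2 CPM). With the replicate number fitted as a block, 23 of the 28 had a higher mean (median 0.27). Without cKO 2 the number was 17 (0.07), and without cKO 3 it was 6 (-0.23). Of 25 enzymes of barrier lipids, 18 had a lower mean (median -0.19). Sptlc3, a subunit of serine palmitoyltransferase, was at 60.7 and 41.5 CPM, Cers3, the ceramide synthase of the epidermis, at 50.1 and 35.3 CPM, and Cyp4f39, which hydroxylates very long fatty acids, at 53.3 and 38.6 CPM. These 3 had an unadjusted p under 0.05 (2.4% of all genes were lower at that threshold). Without cKO 3 and cKO 5 the count was 0, and with 1 library left out it ran from 1 to 7, the 7 without cKO 7. The 4 stress keratins had a median of 0.74, which was -0.18 without cKO 7, and 0 of them passed an unadjusted p of 0.05. Krt6a was at 317 and 656 CPM.

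**Figure D5:**
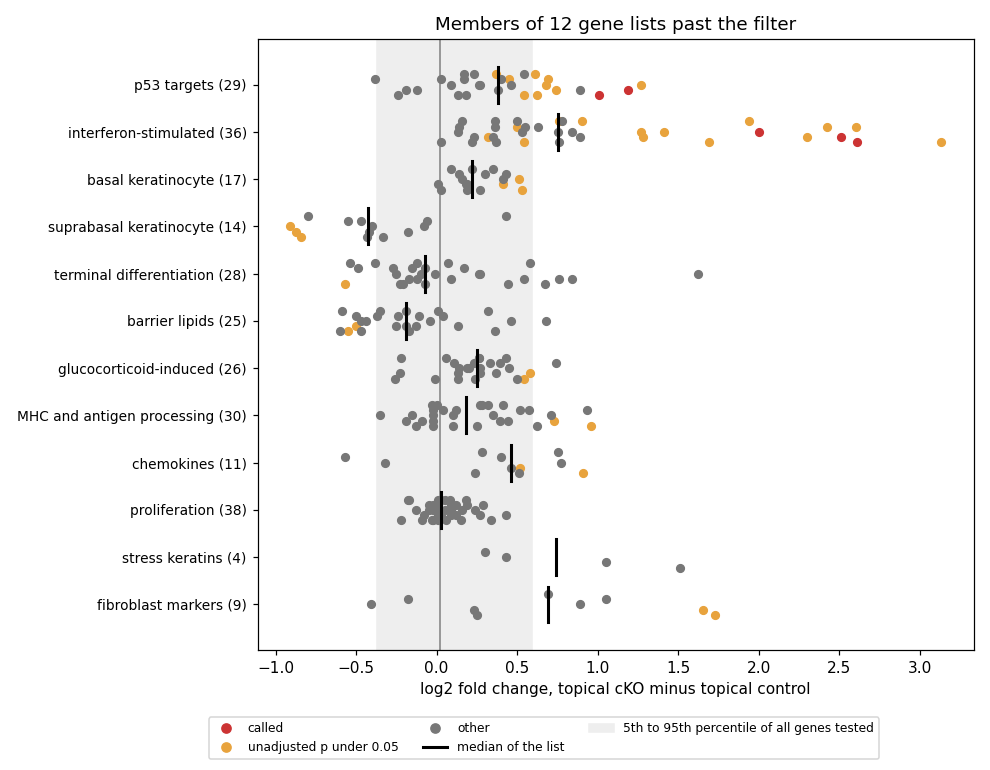
Log2 fold change, topical cKO minus topical control (horizontal axis), of the members of 12 gene lists past the filter (vertical axis, number of genes in brackets). Each point is a gene, red if called and orange at an unadjusted p under 0.05, black lines are list medians, and the grey band runs from the 5th to the 95th percentile of all genes tested. The interferon list has the highest median (0.75) and the suprabasal list the lowest (-0.43) of the 12.

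Genes of glucocorticoid action held no called member. Of 26 genes induced by the glucocorticoid receptor that passed the filter, 22 had a higher mean in cKO (median 0.25), 2 were higher and 0 lower at an unadjusted p under 0.05 (7.69%, against 3.26% higher over all genes), and 0 were called. Fkbp5, a chaperone and classical target of the receptor, was at 3.62 CPM in controls and 5.01 CPM in cKO (log2 fold change 0.50, SE 0.40, adjusted p 0.997, edgeR). Tsc22d3, the glucocorticoid-induced leucine zipper, was at 119 and 102 CPM (-0.23, SE 0.26), and Per1, a clock gene with a glucocorticoid response, at 25.6 and 34.6 CPM (0.43, SE 0.29). The 2 members at an unadjusted p under 0.05 were the transcription factor Klf15 and Cdkn1a, and Cdkn1a stands in the p53 list as well. Nr3c1 was at 21.1 to 34.8 CPM in cKO and 19.3 to 35.7 CPM in controls, with a log2 fold change of 0.07 (SE 0.17), which took the other sign without cKO 5, control 3 or control 7. Of 9 genes of steroid synthesis past the filter, 6 had a higher mean (54% of all genes had), and 0 passed an unadjusted p of 0.05. DESeq2 called 0 members of the glucocorticoid-induced list too. With 1 library left out, its median ran from 0.11 (without control 5, with 18 of 26 higher) to 0.31 (without cKO 2). In those fits 0 to 2 members were higher at an unadjusted p under 0.05.

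No gene was called as lower in edgeR's test, beside 298 at an unadjusted p under 0.05 and 3 called by DESeq2. Among the genes that were lower in every cKO library at a mean of at least 5 CPM, the 8 with the smallest p had log2 fold changes of -0.84 to -0.41 and adjusted p-values of 0.112 to 0.577. Tppp, which promotes tubulin polymerization, was at 19.4, 18.0, 17.9, 16.1 and 18.5 CPM in cKO and 26.7, 19.7, 36.3, 26.9 and 27.7 CPM in controls. The cKO libraries lay close together, and control 3 was just above them. Its log2 fold change was -0.61 (SE 0.14, adjusted p 0.112, edgeR, and 0.0211 without control 3). Glb1, the lysosomal beta-galactosidase, was at 6.50 to 9.49 CPM in cKO and 9.53 to 13.7 CPM in controls (-0.62). Of the Golgi and glycan genes, Pgap4, which adds a sugar to GPI anchors, was at 9.99 ± 1.65 CPM in cKO and 16.1 ± 2.94 in controls (SD, n = 5 each). Galnt1, which starts mucin-type glycans, was at 20.0 ± 1.11 and 26.5 ± 2.03 CPM, and the nucleotide sugar transporter Slc35d2 at 5.22 ± 1.30 and 7.70 ± 0.526 CPM. H60c, a ligand of the NKG2D receptor made by keratinocytes, was at 34.3 ± 2.89 and 48.1 ± 6.65 CPM, and Ift46, of intraflagellar transport, at 11.7 ± 1.61 and 15.6 ± 2.10 CPM.

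Exoc4, Gtf3c1 and Ctsz were higher in every cKO library without passing the test. Exoc4, an exocyst subunit, had a log2 fold change of 0.58, Gtf3c1, a subunit of the RNA polymerase III factor TFIIIC, 0.55, and Ctsz, the lysosomal protease cathepsin Z, 0.74, each with an adjusted p of 0.147.

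The 16 called genes were spread over 11 chromosomes, with 3 on chromosome 11 and 2 each on 7, 8 and 15. Cyp11b1 lies on chromosome 15, and Ptp4a3 lies 1.08 Mb from it. Within 5 Mb of Cyp11b1 there were 117 tested genes with a median log2 fold change of 0.09, and 79 of them had a higher mean in cKO (54% of all genes had). Of the 117, 5 were higher and 1 lower at an unadjusted p under 0.05, beside 3.26% and 2.4% of all genes, and Ptp4a3 was the one called.

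The same 16 genes were read in the systemic mice to ask whether the genotype effect depended on the route. In the comparison of systemic cKO with systemic control, 235 genes (1.89%) were called, and 0 of the 16 were among them. The median log2 fold change of the 16 was 1.58 in topical and 0.26 in systemic mice, and 14 of them had a higher mean in systemic cKO. The interaction of genotype and route, fitted to all 20 libraries, was called for 31 genes (0.25%), 2 of them among the 16: Mgmt (-1.40, adjusted p 0.0165) and Dcxr (-1.16, adjusted p 0.0251, edgeR). Without the 3 systemic libraries whose Esr1 went against the label, 16 of 16 had a higher mean in systemic cKO, and the systemic median was 0.43. That fit called 21 of 12582 genes (0.167%) in the systemic comparison, in place of 235, and 1 of the 16 was among them. In that fit the interaction was called for 0 genes, among the 16 and in all. Its estimate was -1.24 for Mgmt (adjusted p 0.155) and -1.235 for Dcxr (adjusted p 0.112, edgeR), close to the values from all 20 libraries. That fit holds fewer systemic libraries, so the lost calls do not show that the difference was gone. Mcam was at 10.4, 10.9 and 8.62 CPM in those labelled systemic cKO 2, 6 and 7, at 1.49 and 1.86 CPM in those labelled systemic cKO 4 and 5, and at 0.957 to 2.75 CPM in systemic control 1, 3, 4 and 5. In the library labelled systemic control 6, where Esr1 was at 43.7 CPM, Mcam was at 3.18 CPM, below the 3 systemic cKO libraries with high Esr1. The 16 were chosen by their topical effect, so their smaller systemic values are a description.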

How the data were processed

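Bulk RNA of sorted keratinocytes was sequenced from SmartSeq II libraries, per the labels' protocols. The authors deposited 1 table of raw counts, whole-number reads per gene for 25719 Ensembl identifiers and 20 libraries. STAR, featureCounts and the builds GRCm38 and mm10 are named in the submitters' processing notes, without versions or strand settings. Positions come from GENCODE vM21 (GRCm38), matched by identifier, which held 12405 of the 12424 genes tested, and promoters from RefSeq (GRCm38.p6).

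All 20 libraries were fitted with edgeR 4.0.16 in R 4.3.3 (TMM scaling, filterByExpr with a minimum count of 10 and a minimum total of 15, robust quasi-likelihood, 1 coefficient per group of genotype and route, two-sided tests, Benjamini-Hochberg over the genes tested, called under 0.05). CPM carry TMM factors unless the library total alone is named. Library levels of lists are mean log2 CPM with a prior count of 2. Cyp11b1 was compared by an exact permutation test on log2(CPM + 1) of the library total. Sex was read from Y-linked transcripts with a threshold of 5 CPM. The procedures were tested on simulated data.

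Named were Cyp11b1, every called gene, the 8 higher and 8 lower uncalled genes with the smallest p whose groups did not overlap at a mean of at least 5 CPM, the 2 members of each of 45 lists with the smallest p, and Nr3c1, Krt14 and Krt10. Other genes, and the p53 element, were chosen after their values were seen. The members and lists were chosen with earlier results of these data known, so lists have no test. Alternatives were DESeq2 1.42.0 size factors and Wald test, limma 3.58.1 voom with sample weights, other filters, non-robust dispersion, covariates for sex and mitochondrial share, the replicate number as a block, the 10 topical libraries alone and leaving out each library. Chosen after seeing the data were the fits without 3 systemic libraries and without topical cKO 3 and 5, and values within each sex. Some genes are not reported here.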

Additional observations from a re-analysis of the deposited data

Results flagged for a closer look

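For 72 named genes, the highest or lowest library of each topical group was compared with the rest of its group, 144 groups in all, and 11 had a library whose gap to its nearest neighbour was more than 0.71 of the group's range. Chance alone sets apart about 1 in 20 groups. In cKO 7, Ddit4l was at 3.57 CPM (the next cKO library at 1.94), Lgals3bp at 14.3 (5.70), Polk at 12.3 (8.53) and Ifi27l2a at 50.5 (14.3), so that cKO 7 stood apart in 4 of the 16 called genes. In cKO 5, H60c was at 29.4 CPM (the next lowest at 34.6), Col1a1 at 4.49 (0.999) and Cldn5, a junction gene of endothelium, at 3.75 (2.15). Cxcl16 was at 315 CPM in cKO 4 (207 in the next), Ccn2 at 7.52 CPM in cKO 2 (10.3 in the next lowest) and Dusp6 at 68.6 CPM in cKO 2 (53.1). Krt10 was at 12300 CPM in control 5, with the other controls at 15700 to 16000.

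The genotype effect differed between systemic and topical mice, by the interaction of edgeR's test on all 20 libraries, for 5 named genes. Mgmt (-1.40), Dcxr (-1.16) and Slc1a5, an amino acid transporter (-1.45), had a lower log2 fold change in systemic mice, and Glb1 (1.03) and Sptlc3 (1.36) a higher one. Without the 3 systemic libraries whose Esr1 went against the label, the interaction was called for 0 genes. The estimates kept their sign in that fit: Mgmt -1.24, Dcxr -1.235, Slc1a5 -1.164, Glb1 1.03 and Sptlc3 1.203.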

How the results depend on the processing

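The 16 topical calls became 42 with the DESeq2 Wald test (39 higher, 3 lower), 26 with limma voom and sample weights (24 higher, 2 lower) and 9 with the replicate number as a block. Calls lost with the block included Ccng1 (adjusted p 0.299), Notch1 (0.235), Aaas (0.235) and Polk (0.0921, edgeR). Leaving out 1 library gave 10 (without control 1 or control 7) to 19 (without cKO 5). Deviations of libraries that share the numbers 3, 5 and 7 correlated at -0.145, 0.338 and 0.266. These 3 pairs are too few to tell whether the numbers pair the mice. The count was 16 with DESeq2 size factors, with sex as a covariate and with non-robust dispersion, 17 with all genes, 12 with genes of 5 CPM or more, 22 with the mitochondrial covariate, 24 with 17 libraries and 21 without cKO 3 and 5. Groups did not overlap for 174 genes, for 92 on library totals and for 103 among genes of 5 CPM or more. The interaction, called for 2 of the 16, was called for 0 with the replicate block and with 17 libraries, and for 1 to 3 without 1 library. The Cyp11b1 difference ran from -0.118 (without cKO 5) to 0.0114 (without control 6), and Nr3c1, with 1 library left out at a time, from -0.03 (without control 7 or cKO 5; -0.01 without control 3) to 0.19, while it was -0.12 without both cKO 3 and cKO 5. With the replicate block, 11 of 17 basal genes had a higher mean and 0 passed an unadjusted p of 0.05. The causes of these shifts were not tested. No called gene changed direction in any fit. The counts of Cyp11b1 limit what depth can show, and each group holds 5 mice, of which 2 or 3 are of each sex.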

Other observations

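Within the sexes, several lists ran in opposite directions. In the topical comparison as a whole, their median log2 fold changes were 0.03 (proliferation), -0.07 (terminal differentiation) and 0.18 (MHC and antigen processing). Of 38 proliferation genes, 3 had a higher mean in cKO among females (median log2 fold change -0.32) and 38 among males (0.44), and 16 passed an unadjusted p of 0.05 for the difference between the sexes, beside 3.63% of all genes. Relative to the mean of the controls, this list stood at 0.01, 0.19 and -0.47 in the male control 1, 5 and 6. It stood at 0.34 and -0.06 in the female control 3 and 7. Without control 6, 12 of the 38 had a higher mean in cKO over both sexes, in place of 26. Terminal differentiation genes had a median of 0.33 in females (20 of 28 higher) and -0.40 in males (3 higher), and genes of MHC and antigen processing 0.30 (23 of 30) and -0.49 (5). The difference between the sexes was called for 0 genes in edgeR's test, and 451 had an unadjusted p under 0.05. These values rest on 3 cKO and 2 control females and 2 cKO and 3 control males, and the male cKO libraries were the deepest of the cKO group.

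Nuclear genes of the respiratory chain (median 0.01) and ribosomal proteins (-0.06) were close to the median of all genes, and 0 members of either list passed an unadjusted p of 0.05. The cKO libraries differed, though. Relative to the mean of the controls, the respiratory chain stood at -0.48 and -0.28 in cKO 3 and 5 and at 0.16, 0.26 and 0.35 in cKO 2, 4 and 7. Ribosomal proteins stood at -0.44 and -0.30 in cKO 3 and 5 and at 0.08, 0.21 and 0.20 in cKO 2, 4 and 7. Gsta2, a glutathione transferase of the NRF2 response, was at 11.4, 7.55, 12.5, 6.10 and 12.2 CPM in cKO 2, 3, 4, 5 and 7 and at 18.9, 11.9, 25.1, 27.0 and 19.2 CPM in control 1, 3, 5, 6 and 7. The groups overlapped at control 3, and the log2 fold change was -1.05 (SE 0.31, adjusted p 0.521, edgeR).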
